A study of Saccharomyces cerevisiae with 24 samples.

Results

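The 6 acid and alkaline phosphatase genes of budding yeast described here are PHO5 (YBR093C), PHO11 (YAR071W), PHO12 (YHR215W), PHO3 (YBR092C), PHO8 (YDR481C) and DIA3 (YDL024C). They are 6 of the 6600 mRNA features and 7127 features in the count table, and all 6 were among the 6518 features that passed the filter on low counts. They were picked by name as the phosphatase enzymes of the phosphate pathway and their relatives, after PHO5 and PHO11 had been seen at higher levels in npl3 mutants than in NPL3 cells. The values that set a mutant against NPL3 cells therefore describe the choice. For the 6 genes they are printed without p-values, and where counts of calls on that contrast are given nothing is read from them.

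The libraries came from Saccharomyces cerevisiae cells of the W303 background whose NPL3 gene was supplied on the plasmid pRS315, a low-copy vector, in an npl3-shuffle strain. The plasmid carried 1 of 3 mutant alleles, npl3-F162Y, npl3-P196D-A197D or npl3-F245I, or the wild-type allele, named NPL3 here. F162Y changes a residue of the first RNA recognition motif of the Npl3 protein, F245I one of the second, and P196D-A197D a pair of residues in the linker that joins the motifs. All 4 strains shared the genotype MATa GAL+ with the alleles ade2-1, can1-100, his3-11,15, trp1-1 and ura3-1 and a mutant leu2 allele, so the NPL3 cells carried these markers too. Each strain was grown in the rich medium YPD to mid-log phase at 30 °C, and part of the cultures was then moved to 37 °C for 1 h. This gave 8 groups of 3 libraries. The labels do not say whether the 3 libraries of a group came from separate cultures or transformants, and a p-value here reflects no more than the spread among those libraries.

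Npl3 is an SR-like protein that binds mRNA and travels with it out of the nucleus. Phosphatase genes of the phosphate (PHO) pathway are switched by the activator Pho4. In medium with ample phosphate the cyclin-kinase pair Pho80-Pho85 phosphorylates Pho4, which then leaves the nucleus, and in phosphate starvation the inhibitor Pho81 blocks the kinase and Pho4 activates its targets. PHO5 is a classic model of gene activation through loss of promoter nucleosomes. PHO5, PHO11 and PHO12 encode secreted acid phosphatases that are repressed by phosphate, PHO3 encodes a secreted acid phosphatase that is made constitutively and releases thiamine from its phosphates, and PHO8 encodes the alkaline phosphatase of the vacuole. DIA3 is related in sequence to the acid phosphatases and is named for a role in invasive growth.

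The libraries held 15.8 M to 34.7 M counts assigned to features, with a median of 24.9 M. Libraries within a group correlated with r of 0.9935 to 0.9975 on log values, and no 2 libraries were identical. The NPL3 transcript was present at 180 to 346 CPM (counts scaled to the library size, after TMM normalization) in the 24 libraries. Its level differed between strains. In NPL3 cells it was at 198 to 207.5 CPM at 30 °C and 180 to 203 CPM at 37 °C. The ranges at 30 °C and 37 °C were 254 to 288 and 232 to 280 CPM in npl3-F162Y. They were 323 to 336 and 275.5 to 317 CPM in npl3-P196D-A197D, and 207 to 218 and 338 to 346 CPM in npl3-F245I. Whether this level bears on the 6 genes was not tested. The alleles are point mutations, so this level does not check the labels. The mating-type a genes fitted the genotype, with each of 6 a-specific genes at 40.6 CPM or more in every library (the lowest value was one of MFA1), against at most 5.69 CPM for MFALPHA1 and at most 1.87 CPM for MFALPHA2, which encode α-factor. STE3, the receptor for a-factor, stayed at or below 21.9 CPM, and SAG1, the α-agglutinin gene, was at 52.0 CPM or more in every library.

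In the R64 genome build, all 6 genes consisted of a single coding exon. PHO5 (chromosome II, 429548 to 430951, minus strand) and PHO3 (chromosome II, 427698 to 429101, minus strand) lie in tandem, 446 bp apart, with coding sequences 86.6% identical and no identical run longer than 98 bases. PHO11 (chromosome I, 225460 to 226863, plus strand) and PHO12 (chromosome VIII, 552099 to 553502, plus strand) lie near the right ends of their chromosomes. Their coding sequences are 99.7% identical and differ at 4 positions, counted from the A of the start codon, A273G, A1060C, C1245T and A1268G from PHO11 to PHO12. The longest run without a difference is 786 bases, so reads from most of either gene match both, and the split of counts between PHO11 and PHO12 is uncertain. PHO8 (chromosome IV, 1418550 to 1420250, minus strand) is the outlier of the set, at 50.9% to 51.8% identity with the other 5. Those end-to-end alignments hold 509 to 583 gap positions and no identical run longer than 7 bases, so these percentages do not show relatedness. DIA3 (chromosome IV, 408451 to 409857, minus strand) is 66.3% to 67.6% identical to the 4 secreted acid phosphatases. The 5′ end of DIA3 overlaps YDL022C-A, annotated as an uncharacterised protein, by 50 bases on the same strand.

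The promoter stretches that hold the Pho4 motifs are printed because 3 of the 6 genes share a pair of them. Each run is given 5′ to 3′ on the gene's own strand, read from R64, and extends 15 bases beyond its outermost motif. Capitals mark a match to CACGTG, the high-affinity Pho4 motif, or to CACGTT, a lower-affinity one, on either strand (AACGTG is CACGTT read on the other strand). The runs are PHO5 at chrII:431184-431328, PHO11 at chrI:225029-225197, PHO12 at chrVIII:551666-551836 and PHO8 at chrIV:1420610-1420645.
PHO5: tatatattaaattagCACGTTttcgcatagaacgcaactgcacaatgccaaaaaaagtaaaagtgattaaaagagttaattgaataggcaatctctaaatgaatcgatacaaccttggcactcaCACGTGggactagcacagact
PHO11: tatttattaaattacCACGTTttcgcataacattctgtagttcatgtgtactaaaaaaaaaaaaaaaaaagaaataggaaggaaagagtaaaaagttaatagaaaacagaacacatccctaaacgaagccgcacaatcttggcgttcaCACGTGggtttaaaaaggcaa
PHO12: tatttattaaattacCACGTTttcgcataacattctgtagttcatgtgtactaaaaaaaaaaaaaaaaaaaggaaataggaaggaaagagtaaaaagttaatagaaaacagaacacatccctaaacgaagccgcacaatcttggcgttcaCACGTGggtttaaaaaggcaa
PHO8: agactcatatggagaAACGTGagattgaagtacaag

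In PHO5 the CACGTT match lay 362 to 357 bases and the CACGTG match 253 to 248 bases before the start codon. PHO11 and PHO12 held the same pair, CACGTT at 416 to 411 bases in PHO11 and at 418 to 413 bases in PHO12, and CACGTG at 283 to 278 bases in both. Their 500 upstream bases were 99.2% identical, with 0 mismatches and 4 gap positions. PHO8 held a single CACGTT match, on the strand opposite to the gene's own, and PHO3 and DIA3 held neither motif within 500 bases. Among 6000 protein-coding genes, 6.2% held CACGTG and 16% CACGTT in a window of that length, and 75 genes (1.25%) held both. Other phosphate genes with both were PHO81, VIP1, PHO84, PHO89, PHO86, VTC3, INM1, PAH1 and GDE1. The stress-element motif AGGGG, bound by Msn2 and Msn4, matched 34.1% of all promoters, and in this set it matched PHO8 at 227 to 223 bases and DIA3 at 425 to 421 and 127 to 123 bases. These matches are letters in the reference sequence, and binding was not measured.

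**Figure D1:**
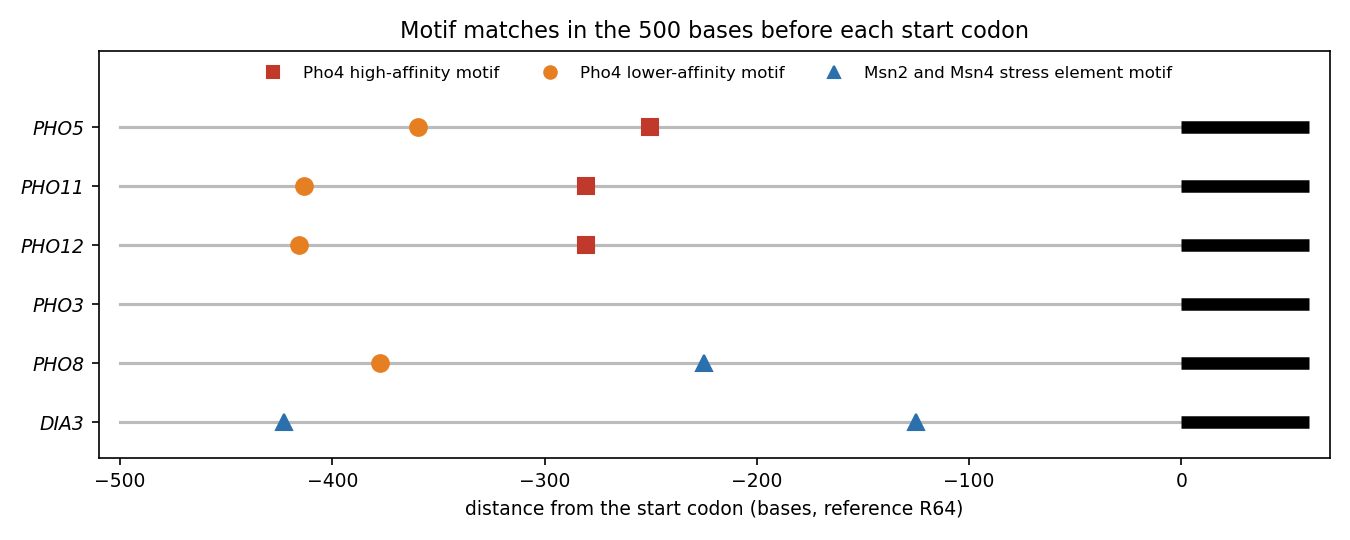
Positions of motif matches in the 500 bases before the start codon of the 6 genes, in bases from the start codon. Squares mark CACGTG, circles CACGTT and triangles AGGGG, and PHO5, PHO11 and PHO12 are the 3 genes with both a square and a circle.

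At 30 °C the 3 phosphate-repressible genes stood far above their NPL3 level in each mutant. PHO5 was at 795, 814 and 752 CPM in npl3-F162Y, at 742.5, 733 and 884 CPM in npl3-P196D-A197D, and at 404, 408 and 445 CPM in npl3-F245I, against 37.1, 31.9 and 30.7 CPM in NPL3 cells. The fold over NPL3 was 23.6 in npl3-F162Y, 12.6 in npl3-F245I and 23.6 in npl3-P196D-A197D. No mutant library overlapped the NPL3 libraries, and npl3-F245I stayed below the other two mutants.

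PHO11 was at 88.2, 96.6 and 90.1 CPM in npl3-F162Y, at 81.2, 86.5 and 95.3 CPM in npl3-P196D-A197D and at 36.3, 37.5 and 44.6 CPM in npl3-F245I, against 7.63, 6.45 and 6.75 CPM in NPL3 cells. PHO12 was at 140, 146 and 136 CPM in npl3-F162Y, at 127.5, 137.5 and 144 CPM in npl3-P196D-A197D and at 63.9, 66.2 and 69.9 CPM in npl3-F245I, against 13.2, 12.5 and 13.1 CPM in NPL3 cells. As for PHO5, npl3-F245I stayed below the other two mutants, whose libraries overlapped each other, and no mutant library overlapped the NPL3 libraries. With the counts of PHO11 and PHO12 summed, the fold over NPL3 was 11.6 in npl3-F162Y, 5.33 in npl3-F245I and 11.2 in npl3-P196D-A197D. The split of counts between the genes cannot change this sum. Reads that fit both genes would be missing from it if they were dropped before counting.

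The other 3 genes differed much less. PHO8 was at 251, 252 and 242 CPM in npl3-F162Y, at 271, 277 and 279.5 CPM in npl3-P196D-A197D and at 252, 251 and 254.5 CPM in npl3-F245I, against 168, 156 and 158 CPM in NPL3 cells. DIA3 was at 21.4, 20.4 and 22.1 CPM in npl3-F162Y, at 13.6, 14.6 and 12.4 CPM in npl3-P196D-A197D and at 17.3, 18.7 and 18.1 CPM in npl3-F245I, against 7.39, 7.41 and 7.64 CPM in NPL3 cells. Neither gene's mutant libraries overlapped NPL3, with folds of 1.55, 1.72 and 1.57 for PHO8 and 2.85, 1.81 and 2.41 for DIA3 in npl3-F162Y, npl3-P196D-A197D and npl3-F245I.

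PHO3, the constitutive neighbour of PHO5, was at 693, 686 and 657.5 CPM in npl3-F162Y, at 628, 607 and 632.5 CPM in npl3-P196D-A197D and at 758, 711 and 709 CPM in npl3-F245I, against 566, 542.5 and 524 CPM in NPL3 cells. Its folds over NPL3 were 1.25, 1.14 and 1.33 in those mutants, far below those of PHO5 beside it. By the quasi-likelihood test of edgeR, Benjamini-Hochberg adjusted over all 6518 features (called at an adjusted p under 0.05), 6 of 6 genes were called higher in each mutant. The same test called 29.8% of all features higher in npl3-F162Y, 24.5% in npl3-F245I and 24.1% in npl3-P196D-A197D. The genes were chosen on this contrast, so these counts are given as a description only.

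**Figure D2:**
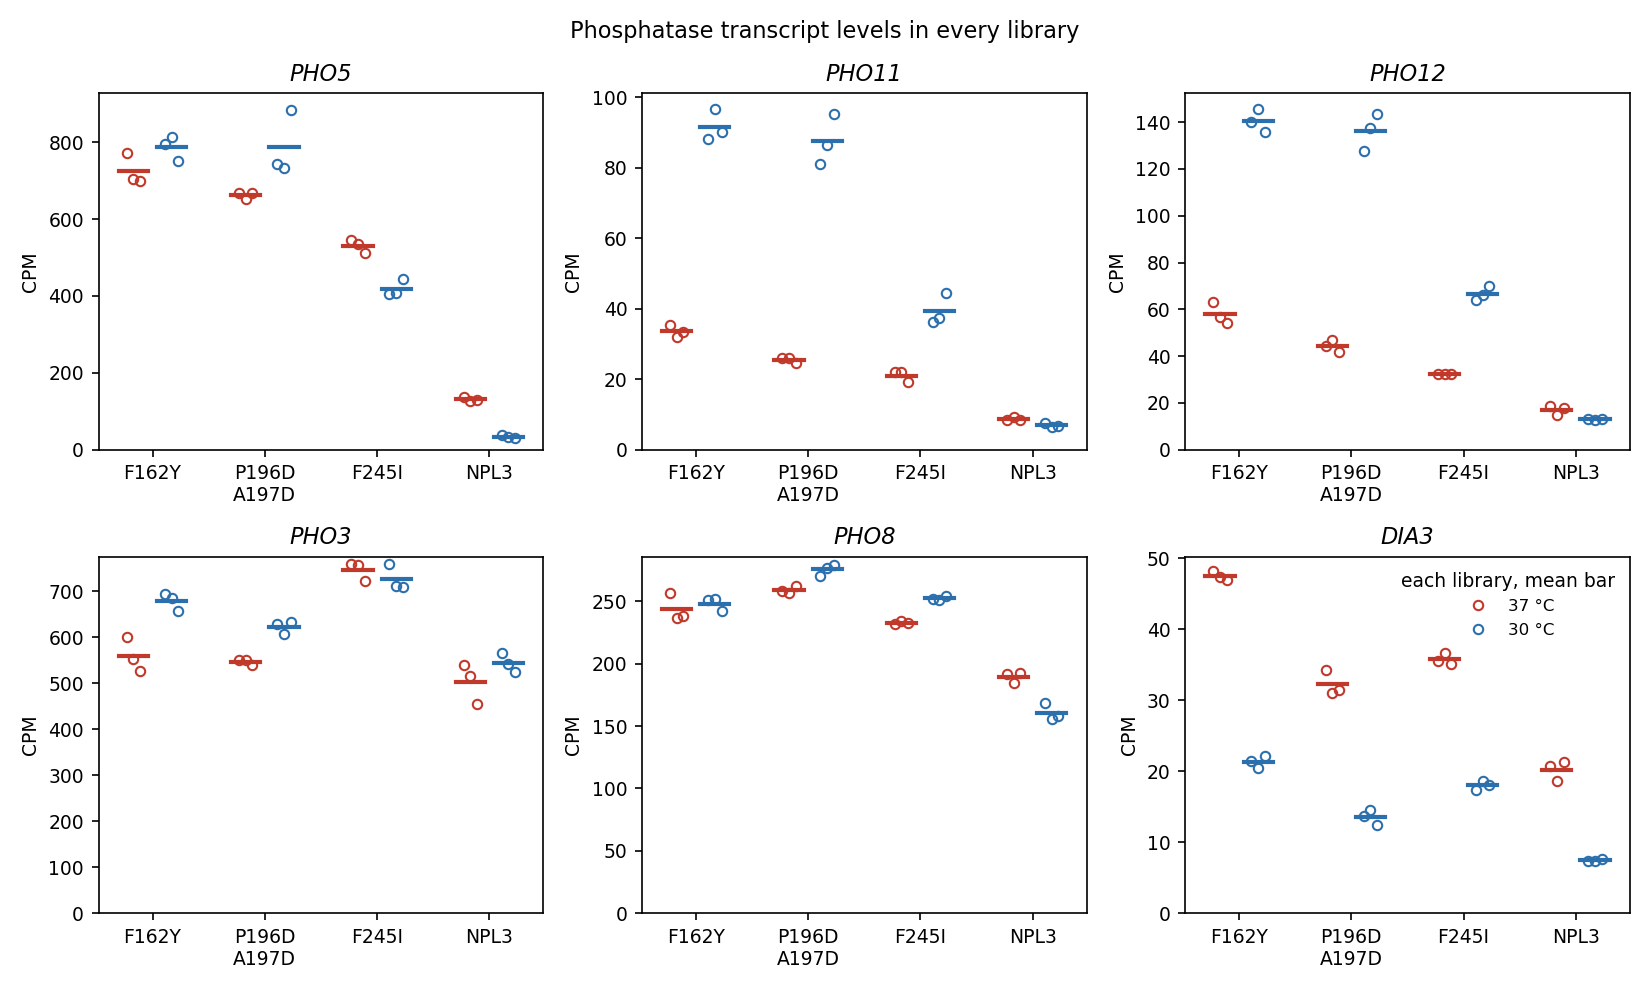
Level of each gene (CPM, TMM-scaled) in every library, with 37 °C in red and 30 °C in blue. Points are single libraries and bars are means of 3. PHO5, PHO11 and PHO12 in NPL3 cells at 30 °C sit near the foot of their panels at 33.2, 6.94 and 12.9 CPM, while PHO3 and PHO8 vary over a narrow range.

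At 37 °C the mutant means were still above those of NPL3 cells, by smaller folds than at 30 °C for every gene except PHO3 in npl3-F245I. PHO5 was at 703, 772 and 698 CPM in npl3-F162Y, at 652.5, 667 and 668 CPM in npl3-P196D-A197D and at 534, 545 and 511 CPM in npl3-F245I, against 127, 136 and 129 CPM in NPL3 cells. Its fold over NPL3 was 5.54, 5.07 and 4.06 in those mutants. For the PHO11 and PHO12 sum the folds were 3.55, 2.7 and 2.07. PHO8 stood at 1.29, 1.37 and 1.23 times and DIA3 at 2.34, 1.60 and 1.76 times the NPL3 level. PHO3 stood at 1.11, 1.09 and 1.48 times the NPL3 level, and its npl3-F162Y libraries overlapped those of NPL3 cells. Its call in npl3-F162Y was lost with only the groups compared. It was also lost without replicate 2 of npl3-F162Y or without replicate 3 of NPL3 at 37 °C. The calls were 6 of 6 genes higher in npl3-F162Y, 5 of 6 in npl3-P196D-A197D, where PHO3 was the gene not called, and 6 of 6 in npl3-F245I, beside 28.0%, 21.3% and 24.0% of all features called higher. These counts too are on the contrast the genes were chosen on, and they are a description only.

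Expressed per kb of coding sequence, the order of the genes differed between strains. In npl3-F162Y at 30 °C, PHO5 led with 560 CPM per kb, followed by PHO3 with 483, PHO8 with 146, PHO12 with 100, PHO11 with 65.3 and DIA3 with 15.2 CPM per kb. In NPL3 cells at 30 °C, PHO3 led with 387 CPM per kb, followed by PHO8 with 94.4, PHO5 with 23.7, PHO12 with 9.22, DIA3 with 5.32 and PHO11 with 4.94 CPM per kb. The last 2 of these overlapped in their spread, and the other neighbours in both orders did not. The levels of PHO11 and PHO12 are too low here if reads that fit both genes were not counted. In npl3-F245I, PHO5 stayed below PHO3 at both temperatures, at 378 against 531 CPM per kb at 37 °C and 298 against 517 CPM per kb at 30 °C.

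The 4 genes of the PHO5 family have coding sequences of 1404 bases each, so their levels were added without a correction for length. The part of PHO11 and PHO12 in this sum is too small if reads that fit both were not counted. Their sum at 30 °C was 1700 ± 55.8 CPM in npl3-F162Y, 1250 ± 24.4 CPM in npl3-F245I and 1630 ± 107 CPM in npl3-P196D-A197D, against 597 ± 24.7 CPM in NPL3 cells (SD, n = 3 each). PHO5 made up 46.3% ± 0.351 of this pool in npl3-F162Y, 33.5% ± 1.55 in npl3-F245I and 48.1% ± 1.99 in npl3-P196D-A197D, against 5.56% ± 0.347 in NPL3 cells (SD, n = 3 each). In NPL3 cells at 30 °C, PHO3 supplied 91.1% ± 0.361 of the counted pool, which was thus mostly the constitutive enzyme's mRNA.

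At 37 °C the sum was 1380 ± 83.5 CPM in npl3-F162Y, 1330 ± 38.2 CPM in npl3-F245I and 1280 ± 6.66 CPM in npl3-P196D-A197D, against 660 ± 46.1 CPM in NPL3 cells (SD, n = 3 each). The PHO5 share was 52.7%, 39.9% and 51.8% in these mutants, against 19.9% ± 1.08 in NPL3 cells (SD, n = 3). The ratio of PHO5 to PHO3 within a library does not depend on the scaling of libraries. It was 1.30 ± 0.0306 at 37 °C, against 1.16 ± 0.0265 at 30 °C, in npl3-F162Y, and 0.710 ± 0.00666 at 37 °C, against 0.578 ± 0.0476 at 30 °C, in npl3-F245I. In npl3-P196D-A197D it was 1.21 ± 0.0300 at 37 °C, against 1.26 ± 0.119 at 30 °C, with overlapping libraries. In NPL3 cells it was 0.261 ± 0.0195 at 37 °C, against 0.061 ± 0.00407 at 30 °C (SD, n = 3 each).

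**Figure D3:**
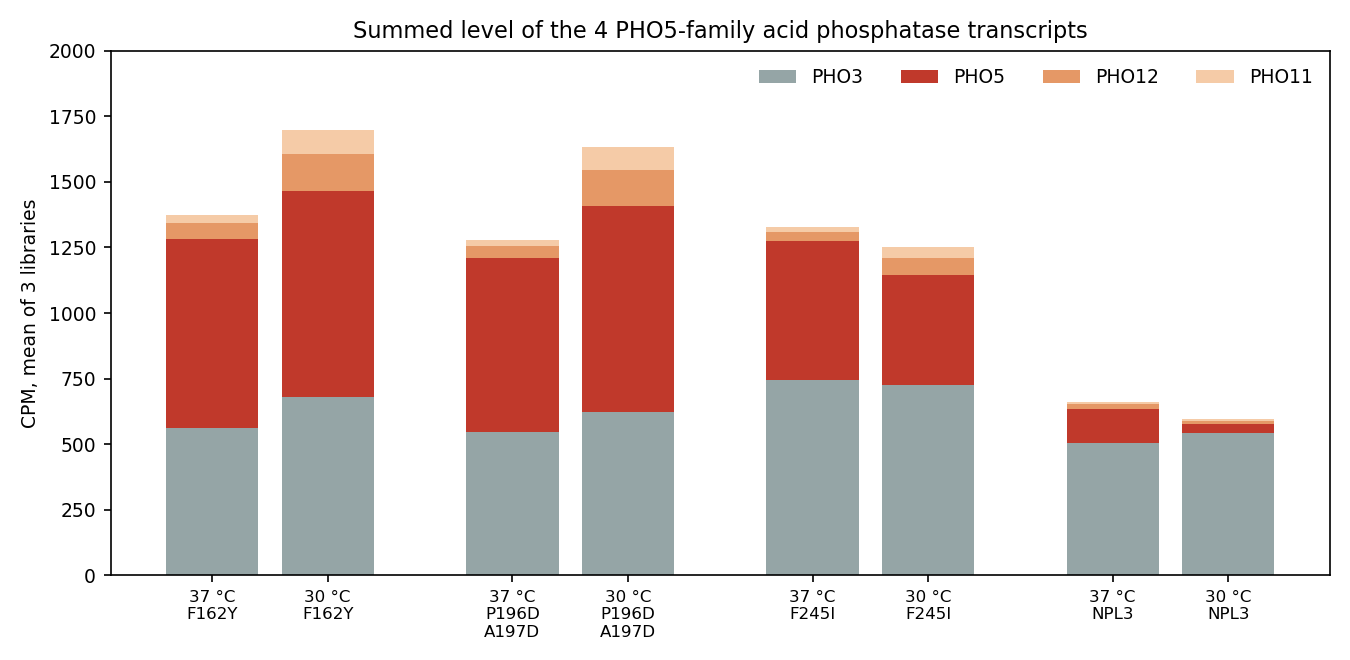
Stacked mean levels (CPM, 3 libraries a group) of PHO3, PHO5, PHO12 and PHO11 in each strain at 37 °C and 30 °C. The grey PHO3 segment runs from 504 to 746 CPM over the 8 bars, and the red PHO5 segment is 419 to 787 CPM high in the mutants at 30 °C, against 33.2 CPM in NPL3 cells at that temperature.

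The shift to 37 °C was not the contrast that brought the genes up, and it was tested in each strain. It shares libraries with that contrast. A high mutant level at 30 °C enters a mutant's fall, and a low NPL3 level at 30 °C enters the NPL3 rise. PHO11 and PHO12 fell in all 3 mutants. In npl3-F162Y, PHO11 fell to 31.9, 35.3 and 33.5 CPM at 37 °C, against 88.2, 96.6 and 90.1 CPM at 30 °C, 2.73-fold lower (log2 change -1.45 ± 0.0722 SE, edgeR adjusted p = 2.62e-14). In npl3-P196D-A197D it fell to 26.1, 25.9 and 24.7 CPM, against 81.2, 86.5 and 95.3 CPM, 3.43-fold lower (adjusted p = 1.26e-15). In npl3-F245I it fell to 22.0, 22.0 and 19.2 CPM, against 36.3, 37.5 and 44.6 CPM, 1.87-fold lower (adjusted p = 2.97e-10). The 37 °C libraries lay below all 30 °C libraries in each of the 3 mutants.

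PHO12 had 56.7, 63.2 and 54.3 CPM in npl3-F162Y, 46.7, 44.3 and 41.7 CPM in npl3-P196D-A197D and 32.2, 32.2 and 32.5 CPM in npl3-F245I at 37 °C. It was 2.42-fold, 3.08-fold and 2.07-fold lower at 37 °C than at 30 °C in these strains (adjusted p = 1.43e-14, 3.43e-16 and 8.62e-13), again without overlap. The summed counts of PHO11 and PHO12 gave 2.53-fold, 3.21-fold and 1.99-fold lower levels in the mutants at 37 °C, and a 1.30-fold higher level in NPL3 cells (adjusted p = 5.04e-05). The fall in the mutants and the rise in NPL3 cells therefore do not rest on how reads were split between the 2 genes.

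PHO5, with the same pair of Pho4 motifs as PHO11 and PHO12, showed small changes in the mutants. In npl3-F162Y its 37 °C libraries overlapped those at 30 °C (log2 change -0.12, 95% interval -0.25 to 0.01, adjusted p = 0.113). In npl3-P196D-A197D it fell 1.19-fold (adjusted p = 0.0019), and in npl3-F245I it rose 1.27-fold (adjusted p = 6.29e-05), with no overlap of temperatures in either strain. The npl3-F162Y result depended on the fit: 4 of 14 alternatives called it, among them DESeq2 (adjusted p = 0.044) and the fit without replicate 2 of npl3-F162Y at 37 °C (log2 change -0.17, adjusted p = 0.0458).

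DIA3 rose in all 4 strains. At 37 °C it was at 47.3, 48.2 and 47.0 CPM in npl3-F162Y, at 31.0, 34.3 and 31.5 CPM in npl3-P196D-A197D and at 36.6, 35.5 and 35.2 CPM in npl3-F245I, 2.23-fold, 2.39-fold and 1.98-fold above the same strain at 30 °C (adjusted p = 3.36e-14, 5.87e-14 and 5.36e-13). It was the only one of the 6 genes called higher at 37 °C in every strain. YDL022C-A, which overlaps it, had log2 changes of 3.25 in npl3-F162Y (adjusted p = 6.5e-05), 0.83 in npl3-P196D-A197D (adjusted p = 0.288), 2.77 in npl3-F245I (adjusted p = 0.000217) and 1.64 in NPL3 cells (adjusted p = 0.0287), and its part in the DIA3 counts was not tested.

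PHO3 fell in npl3-F162Y to 552, 600 and 526 CPM at 37 °C against 693, 686 and 657.5 CPM at 30 °C, 1.21-fold (adjusted p = 7.24e-05), and in npl3-P196D-A197D to 551, 550 and 540 CPM against 628, 607 and 632.5 CPM, 1.14-fold (adjusted p = 0.0038). In npl3-F245I it was at 756, 759 and 723 CPM at 37 °C, overlapping the 30 °C libraries (adjusted p = 0.519). PHO8 fell 1.08-fold in npl3-F245I (adjusted p = 0.00714) and had log2 changes of -0.03 in npl3-F162Y (adjusted p = 0.571) and -0.09 in npl3-P196D-A197D. This last call (adjusted p = 0.0417) was lost when any of the strain's libraries other than replicate 1 at 30 °C was left out (adjusted p = 0.0555 to 0.12). It was also lost with no filter on low counts (adjusted p = 0.0619) and without the 4 libraries whose titles carry another number series (adjusted p = 0.0525). The shift called 4 of 6 genes in npl3-F162Y beside 61.3% of all features, 6 of 6 in npl3-P196D-A197D beside 61.9%, and 5 of 6 in npl3-F245I beside 68.6%. These counts stand against a background in which most features changed.

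In NPL3 cells PHO5, PHO11 and PHO12 all rose. PHO5 rose to 127, 136 and 129 CPM at 37 °C against 37.1, 31.9 and 30.7 CPM at 30 °C, which is 3.92-fold (log2 change 1.97 ± 0.0726 SE, edgeR adjusted p = 1.43e-16). PHO11 and PHO12, whose NPL3 libraries at the 2 temperatures did not overlap either, rose by much less, 1.25-fold for PHO11 (adjusted p = 0.00825) and 1.32-fold for PHO12 (adjusted p = 0.000121). PHO8 rose 1.18-fold (adjusted p = 4.77e-06). DIA3 rose 2.71-fold, to 18.6, 20.7 and 21.4 CPM at 37 °C against 7.39, 7.41 and 7.64 CPM at 30 °C (adjusted p = 1.67e-14). PHO3 had 516, 539 and 456 CPM at 37 °C and 566, 542.5 and 524 CPM at 30 °C, overlapping ranges with an adjusted p of 0.0663, which passed the threshold without replicate 1 (0.0486) or replicate 2 (0.0127) at 37 °C or replicate 3 (0.0452) at 30 °C. That is 5 of 6 genes called in NPL3 cells, beside 67.0% of all features.

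**Figure D4:**
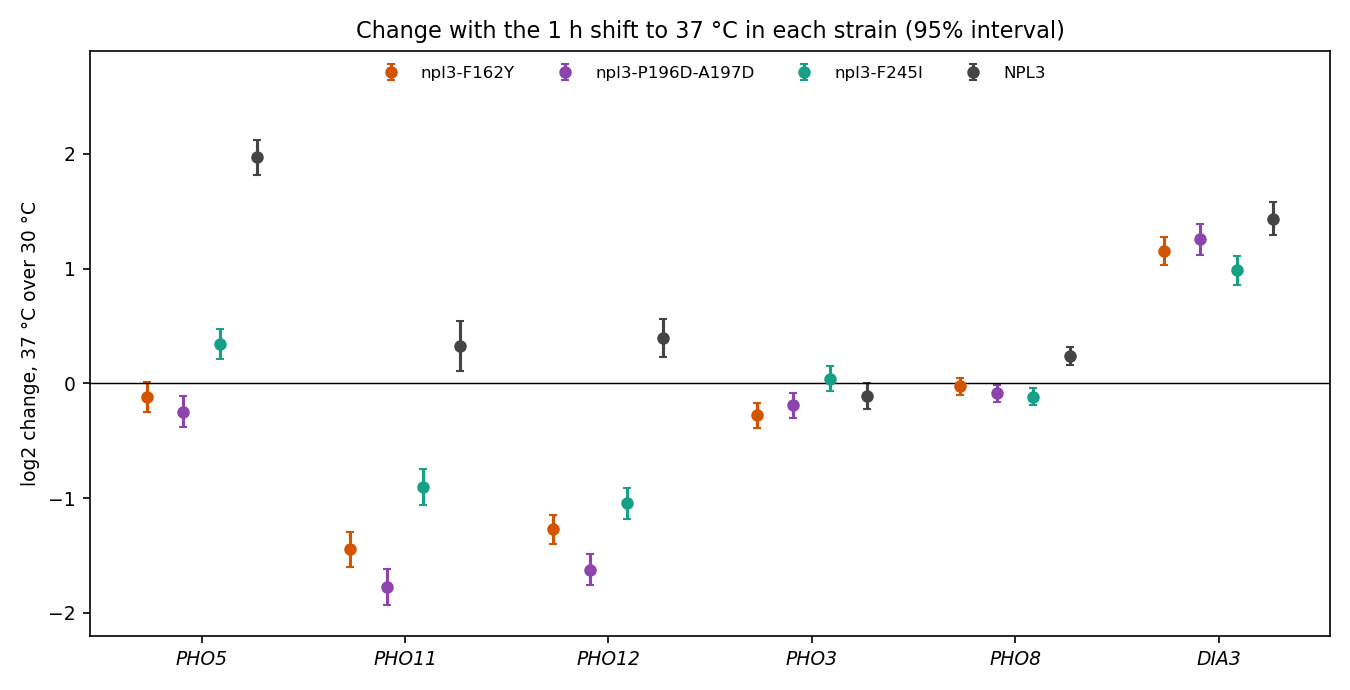
log2 change of each gene with the shift (37 °C over 30 °C) in each strain. Points are edgeR estimates and bars 95% intervals. PHO11 and PHO12 lie below 0 in the 3 mutants and above 0 in NPL3 cells, PHO5 is between -0.25 and 0.34 in the mutants and at 1.97 in NPL3 cells, and DIA3 is above 0 in every strain.

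The difference between a mutant's shift and the NPL3 shift was tested as an interaction. It uses the same 30 °C libraries as the contrast that drew attention to PHO5 and PHO11, so a high mutant level at 30 °C enters both. For PHO5 the difference in log2 change was -2.09 ± 0.0968 in npl3-F162Y, -2.22 ± 0.0969 in npl3-P196D-A197D and -1.63 ± 0.0967 in npl3-F245I (SE, edgeR adjusted p = 2.15e-13, 1.19e-13 and 1.08e-11). For the PHO11 and PHO12 sum it was -1.72, -2.06 and -1.37 (adjusted p = 1.75e-12, 7.75e-14 and 9.56e-11). PHO8, called higher in NPL3 cells only, showed smaller differences of the same sign, -0.27, -0.33 and -0.36 (adjusted p = 0.000734, 0.000152 and 1.64e-05).

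For DIA3 the difference of shifts was -0.45 in npl3-F245I (adjusted p = 0.000747), -0.18 in npl3-P196D-A197D (adjusted p = 0.255) and -0.28 in npl3-F162Y (adjusted p = 0.0302). The last call was lost when any 1 of 8 libraries was left out, replicates 1 and 3 of npl3-F162Y at both temperatures, replicates 2 and 3 of NPL3 at 37 °C and replicates 1 and 2 of NPL3 at 30 °C (adjusted p = 0.0522 to 0.0784). It was also lost with only the groups compared (adjusted p = 0.0574) and without the 4 libraries whose titles carry another number series (adjusted p = 0.0655). For PHO3 the differences were -0.17, -0.08 and 0.15 (mutants in the same order as for PHO5), with adjusted p = 0.117, 0.579 and 0.139. The first was called without replicate 2 of npl3-F162Y (-0.22) or replicate 3 of NPL3 (-0.25) at 37 °C, and the third without replicate 2 of NPL3 at 37 °C (0.20). Of the 6 genes, with PHO11 and PHO12 counted as 2, 5, 4 and 5 were called in these mutants and all in the lower direction. Among all features 8.68%, 5.08% and 12.4% were called lower and 20.5%, 10.6% and 28.9% were called in either direction.

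The mutants were then compared with each other, in 6 pairings of strain and temperature that did not involve NPL3 cells. The mutant libraries of these pairings also entered the contrast on which the genes were chosen, so a high level in a mutant enters both. npl3-P196D-A197D and npl3-F162Y were close for the Pho4-motif genes at 30 °C. The log2 difference was 0.00 for PHO5 (95% interval -0.13 to 0.13, adjusted p = 0.999), -0.06 for PHO11 (-0.21 to 0.08, adjusted p = 0.557) and -0.04 for PHO12 (-0.17 to 0.08, adjusted p = 0.642), and the libraries of the 2 strains overlapped for each. PHO8 was 1.11-fold higher (adjusted p = 0.00366) and DIA3 1.57-fold lower (adjusted p = 1.9e-07) in npl3-P196D-A197D, the 2 genes called of 6, beside 25.2% of all features.

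npl3-F245I had the lowest mutant levels of the repressible genes. At 30 °C it was 1.88-fold below npl3-F162Y for PHO5 (adjusted p = 2.21e-10), 2.32-fold for PHO11 (adjusted p = 9.78e-12) and 2.11-fold for PHO12 (adjusted p = 8.16e-12), with no overlap of libraries. DIA3 was also lower, 1.18-fold (adjusted p = 0.00483), giving 4 of 6 genes called beside 33.7% of all features. npl3-P196D-A197D over npl3-F245I at 30 °C called 6 of 6 genes beside 28.2% of all features, with PHO5 1.88-fold, PHO11 2.22-fold, PHO12 2.04-fold and PHO8 1.09-fold higher and PHO3 1.17-fold and DIA3 1.33-fold lower in npl3-P196D-A197D. The folds of PHO3 and PHO8 were the smallest and those of the 3 repressible genes the largest.

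At 37 °C the gap between npl3-F245I and npl3-F162Y was 1.37-fold for PHO5 (adjusted p = 5.44e-06), 1.59-fold for PHO11 (adjusted p = 2.79e-07) and 1.80-fold for PHO12 (adjusted p = 3.63e-10), each lower in npl3-F245I. PHO3 differed in the other direction at this temperature, 1.33-fold higher in npl3-F245I than in npl3-F162Y (adjusted p = 9.95e-07), with libraries at 756, 759 and 723 CPM against 552, 600 and 526 CPM. DIA3 was 1.33-fold lower (adjusted p = 2.54e-06). These made 5 of 6 genes called beside 38.2% of all features.

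npl3-P196D-A197D over npl3-F162Y at 37 °C called 3 of 6 genes beside 19.3% of all features, all lower, with PHO11 and PHO12 each 1.31-fold and DIA3 1.47-fold (adjusted p = 0.000832, 0.000118 and 2.07e-07). PHO5 had a log2 difference of -0.13 there (95% interval -0.26 to 0.00, adjusted p = 0.172), and PHO8 one of 0.09 (adjusted p = 0.0958, called without replicate 2 of npl3-F162Y at 0.0206). npl3-P196D-A197D over npl3-F245I at 37 °C called 6 of 6 genes beside 37.7% of all features, PHO5 1.25-fold, PHO11 1.21-fold, PHO12 1.37-fold and PHO8 1.11-fold higher and PHO3 1.36-fold and DIA3 1.11-fold lower. Of these, DIA3 (adjusted p = 0.048) was lost when any library of the 2 groups other than replicate 2 of npl3-P196D-A197D was left out (adjusted p = 0.0656 to 0.168). It was also lost with RLE size factors, no filter, DESeq2 or only the groups compared (adjusted p = 0.0555 to 0.0855). PHO11 (adjusted p = 0.00793) missed the threshold without replicate 3 of npl3-F245I (adjusted p = 0.0514).

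**Figure D5:**
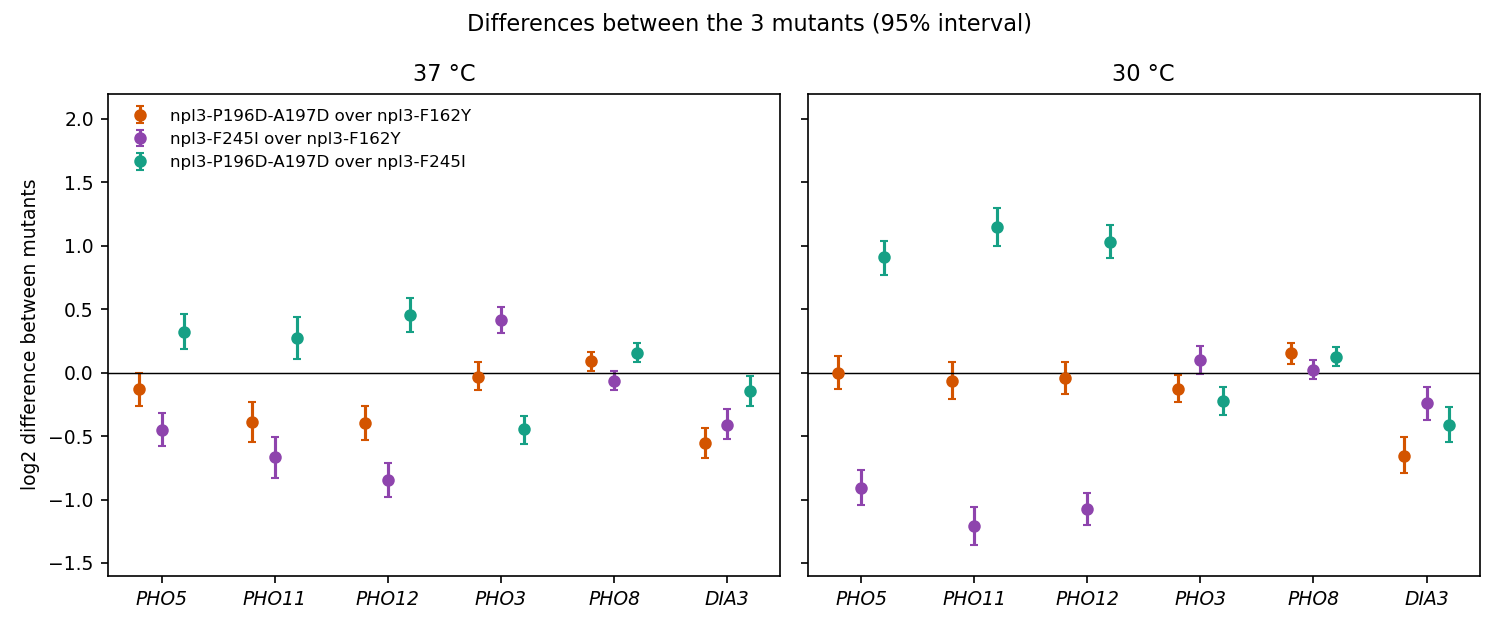
log2 difference between mutants for each gene at 37 °C (left) and 30 °C (right), with edgeR estimates and 95% intervals. PHO5, PHO11 and PHO12 in npl3-F245I lie below npl3-F162Y at both temperatures, and at 30 °C npl3-P196D-A197D over npl3-F162Y lies near 0 for these 3 genes.

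For each gene, the features with the most similar pattern were ranked by the root mean square difference of centred log2 group means over the 8 groups, among 5308 features with at least 10 CPM on average. PHO5, whose own spread over the groups was 1.53 (SD, log2), was nearest to DPA10 (0.521), PHO84, the high-affinity phosphate transporter (0.641), SPL2, a small regulator of low-affinity phosphate transport (0.78), SNO1 (0.781) and SNZ1 (0.832). PHO11 was nearest to PHO89 (0.324), a sodium-coupled phosphate transporter, followed by SNZ1 (0.403), and PHO12 likewise to PHO89 (0.341) and SNZ1 (0.44). PHO11 and PHO12 differed from each other by 0.117, and PHO5 differed from PHO11 by 0.814. SNZ1 and SNO1 encode enzymes of vitamin B6 synthesis.

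DIA3, with a spread of 0.789, was nearest to GRE1 (0.158), a stress-induced gene, followed by BIO4 (0.206), RCK1 (0.22), ATG8 (0.223) and RTA1 (0.226). PHO3 and PHO8 varied little over the groups, with spreads of 0.199 and 0.246, and their nearest features were SNT1 (0.052) for PHO3 and GDH1 (0.076), a glutamate dehydrogenase gene, for PHO8.

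Other genes of the phosphate system were counted from lists chosen with earlier results of these data known. Among 8 genes of phosphate transport, 6 were called higher and 1 lower in npl3-F162Y than in NPL3 cells at 30 °C, the same counts held in npl3-P196D-A197D, and 5 were higher and 1 lower in npl3-F245I. Of all features, 29.8%, 24.1% and 24.5% were called higher and 38.6%, 31.7% and 33.3% lower in these mutants, and the other counts against NPL3 cells at 30 °C stand beside the same shares. The median log2 difference of the list was 1.08, 1.05 and 0.54 in these mutants, beside -0.04 over all features in each. PHO84 had log2 differences of 4.48, 4.70 and 3.94, and GIT1, a transporter of glycerophosphoinositol, 1.90, 1.77 and 0.89.

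Among 8 genes of polyphosphate metabolism, 6 were called higher and 1 lower in each mutant, with medians of 0.50, 0.60 and 0.38. VTC3 and VTC4, subunits of the vacuolar polyphosphate polymerase complex, had log2 differences of 1.76, 1.95 and 1.30 for VTC3 and of 1.22, 1.38 and 0.96 for VTC4. Among 8 signalling genes the counts were split, 4 called higher and 3 lower in npl3-F162Y, 3 higher and 3 lower in npl3-F245I, and 4 higher and 2 lower in npl3-P196D-A197D. PHO81, the inhibitor of the kinase, had log2 differences of 0.87, 0.84 and 0.82, and PHO4, the activator, of -0.46, -0.34 and -0.31.

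Of 14 other phosphatase and phosphodiesterase genes 6 were called higher and 5 lower in npl3-F162Y at 30 °C, with a median log2 difference of 0.08. Within it GDE1, a glycerophosphocholine phosphodiesterase, had a log2 difference of 1.31, PHM8, a lysophosphatidic acid phosphatase, of 1.05 and GPP1, a glycerol-phosphate phosphatase, of -0.72. Of 8 genes on the route of Pho8 to the vacuole 3 were called higher there, near the 29.8% of all features, among them the vacuolar protease gene PRB1 (0.82), and the median was 0.02. Of 11 chromatin genes with a known part in PHO5 promoter opening or closing 1 was called higher, SNF2 (0.40), and 6 lower, RPD3, a histone deacetylase, among them (-0.55), beside 29.8% and 38.6% of all features, and the median was -0.12. Of 16 thiamine genes, the pathway that PHO3 serves, 9 were called higher and 3 lower, with a median of 0.33.

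With the shift to 37 °C, 6 of the 8 polyphosphate genes fell in each mutant and 1 rose, and 3 rose and 2 fell in NPL3 cells. Of all features, 27.0%, 28.5% and 30.8% fell and 34.4%, 33.4% and 37.8% rose in npl3-F162Y, npl3-P196D-A197D and npl3-F245I, and 32.9% fell and 34.1% rose in NPL3 cells. The difference of shifts was called lower for 5 of these 8 genes in each mutant and higher for none, with median log2 differences of -0.29 in npl3-F162Y, -0.39 in npl3-F245I and -0.39 in npl3-P196D-A197D, beside medians of 0.02, 0.01 and 0.02 over all features, of which 8.68%, 12.4% and 5.08% were called lower. VTC3 fell by 0.43, 0.74 and 0.52 on the log2 scale in the mutants and rose by 0.34 in NPL3 cells (edgeR adjusted p = 7.87e-08, 6.86e-12, 3.32e-09 and 3.66e-06). PHO84 fell in the mutants by 0.46, 0.76 and 1.05 on the log2 scale (adjusted p = 0.0499, 0.00265 and 0.000121), and its log2 change of 0.34 in NPL3 cells had an adjusted p of 0.159. PHO84 and VTC3 thus had mutant log2 changes of the sign seen for PHO11 and PHO12, and none as large as those of PHO11 in npl3-F162Y and npl3-P196D-A197D. In npl3-F245I the fall of 1.05 for PHO84 stood beside log2 changes of -0.90 for PHO11 and -1.05 for PHO12.

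PHO4 itself fell with the shift in all 4 strains, by 0.40, 0.41 and 0.43 on the log2 scale in the mutants and by 0.70 in NPL3 cells (adjusted p = 1.39e-05, 1.31e-05, 3.11e-06 and 1.65e-09). PHO81 fell too, by 0.32, 0.36 and 0.48 in the mutants and by 0.15 in NPL3 cells (adjusted p = 6.23e-06, 1.1e-06, 7.96e-09 and 0.0109). Of the 16 thiamine genes 13 rose in npl3-F162Y, 14 in npl3-P196D-A197D, 11 in npl3-F245I and 14 in NPL3 cells, and 2, 2, 3 and 2 fell, beside 34.4%, 33.4%, 37.8% and 34.1% of all features that rose. PHO3 was called higher in none of the strains.

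Genes beside the 6 gave mixed values between the mutants and NPL3 cells at 30 °C, given here in the order npl3-F162Y, npl3-P196D-A197D and npl3-F245I. PBY1, which starts on the other side of the PHO5 promoter, 1084 bp away, had log2 differences of 0.10, 0.05 and -0.08, and TIM12, beyond PHO3, had -0.34, -0.25 and -0.28. YAR068W, the neighbour of PHO11 at 2568 bp, was higher in each mutant, by 1.65, 1.63 and 1.64 on the log2 scale (SE 0.616, 0.653 and 0.612). CWC21, next to PHO8, had -0.56, -0.56 and -0.47, opposite in sign to PHO8. IMD2, the neighbour of PHO12 at 893 bp, had 0.55, 0.33 and 0.60, and with the shift it fell by 0.65 on the log2 scale in npl3-F162Y (adjusted p = 1.85e-11) and by 0.91 in NPL3 cells (adjusted p = 5.85e-14). PBY1 rose by 0.17 in NPL3 cells with the shift (adjusted p = 0.0036), beside 1.97 for PHO5.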

How the data were processed

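RNA-seq was done on 24 libraries of total RNA extracted with TRIzol and made with a stranded TruSeq mRNA kit, per the labels. The deposited values are raw counts per feature, made by the authors with STAR 2.7.2a and HTSeq on genome build R64, per the submitters' processing notes, and FastQC is named there too. The strand setting and the counting mode are not given in the sources used here. Rows that name no gene were left out of library sizes, at most 6.51% of counts without a feature in any library. The row for reads with several alignments was 0 in every library, and the counts do not show how such reads were handled.

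Libraries were grouped by the strain and temperature in the labels. Counts were scaled by TMM, filtered by filterByExpr, and fitted over all 8 groups with edgeR 4.0.16 (quasi-likelihood, robust, 16 residual degrees of freedom, common biological coefficient of variation 5.26%) in R 4.3.3. The Benjamini-Hochberg adjustment covered 6518 features, and calls were made at 0.05. SE is the absolute log2 change over the square root of F. The 19 comparisons were 6 of a mutant with NPL3 cells, 4 of the shift, 3 interactions and 6 between mutants. The tests were checked on simulated data. The members and lists were chosen with earlier results of these data known, and values of each mutant over NPL3 were used as description. Listed genes were named if among the 6 most expressed of their list, and neighbours by the 5 smallest differences. Alternatives were DESeq2 1.42.0, RLE size factors, no filter, a replicate block, the number series in the titles, only the groups compared, PHO11 and PHO12 summed, and each library left out. Shared replicate numbers paired the samples in 1 of 16 comparisons, npl3-F162Y and NPL3 at 37 °C (all 3 correlations of deviations over 0.1, at 0.21, 0.546 and 0.281). The labels name no shared culture or day. The value of 0.546 is that of replicate 2, and the replicate-2 libraries at 37 °C carry another number series in their titles. Promoter sequences were read from R64.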

Additional observations from a re-analysis of the deposited data

Results flagged for a closer look

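In 14 cases the change with the shift to 37 °C in a mutant differed from the change in NPL3 cells by the interaction test (edgeR, adjusted p under 0.05). For PHO5 the difference in log2 change was -2.091 in npl3-F162Y, -2.219 in npl3-P196D-A197D and -1.632 in npl3-F245I. For PHO11 it was -1.774, -2.104 and -1.231, and for PHO12 -1.672, -2.022 and -1.445, in the same order of mutants. PHO11 and PHO12 fell in the mutants and rose in NPL3 cells, while PHO5 rose 1.27-fold in npl3-F245I and 3.92-fold in NPL3 cells. For PHO8 the differences were -0.265, -0.328 and -0.356. For DIA3 they were -0.283 in npl3-F162Y and -0.449 in npl3-F245I. The 30 °C libraries enter both these differences and the comparison on which the genes were picked.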

How the results depend on the processing

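Of 1685 recomputed tests of the 6 genes, 1627 kept their direction and side of the threshold, 30 lost a call, 25 gained one and 3 changed sign without a call: PHO3 in npl3-P196D-A197D over npl3-F162Y at 37 °C (0.017 without the 4 libraries whose titles carry another number series, -0.076 to 0.02 with 1 library left out, the highest without replicate 2 of npl3-F162Y, against -0.033) and PHO12 in the same strains at 30 °C (-0.083 to 0.001 with 1 library left out, the highest without replicate 1 of npl3-P196D-A197D, against -0.044). The cause was not tested. Counts called among the 6 stayed within 1.5 times their value in every fit, while list counts moved more, for example from 12 to 5 of the other phosphatases in npl3-P196D-A197D over NPL3 at 37 °C. The replicate block changed no call in npl3-F162Y over NPL3 at 37 °C, the comparison whose numbers paired the samples (PHO3 log2 difference 0.153 with the block). Elsewhere the labels give the samples only a shared number, apart from the 4 replicate-2 libraries at 37 °C. These carry another number series in their titles, which holds no 30 °C library. Their deviations correlated with r of 0.344 to 0.546 between strains, and a possible batch cannot be told apart from pairing there. The block added 3 PHO3 calls, among them the fall with the shift in NPL3 cells (adjusted p = 0.0316). With those 4 libraries left out the PHO5 change in NPL3 cells was 1.94. Counts over all features moved most when only the groups compared were fitted, which uses fewer samples: 309 against 694 for the npl3-P196D-A197D interaction (1047 with the number series as a term, 501 to 1275 with 1 library left out, the highest without replicate 1 of NPL3 at 37 °C), 1425 against 2850 for npl3-P196D-A197D over NPL3 at 37 °C, and 2571 against 1642, 3339 against 2199 and 2792 against 1839 for npl3-P196D-A197D over npl3-F162Y, npl3-F245I over npl3-F162Y and npl3-P196D-A197D over npl3-F245I at 30 °C. Depth limited PHO11 most, with 140 counts in its lowest library.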
